A study of Homo sapiens with 12 samples.

Results

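The transcriptome of untreated H929 cells was described from 3 of the 12 arrays of the series, those labelled as controls. H929 is a human myeloma cell line that carries the t(4;14) translocation, so all 3 samples come from 1 line grown in RPMI-1640 with serum and antibiotics, and no sample of normal plasma cells or of another line was used. The other 9 arrays hold cells exposed to the aminopeptidase inhibitor tosedostat, the histone deacetylase inhibitor CHR-3996 or both, and they were not used here. The untreated samples are labelled as biological replicates, the labels give them no compound and no time point, and nothing states whether they came from separate cultures.

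Plasma cells are the antibody-secreting end of the B cell lineage. The factors PRDM1, IRF4 and XBP1 close down the B cell programme and expand the endoplasmic reticulum (ER), where immunoglobulin chains are inserted, folded, glycosylated and sorted for export. Normal plasma cells have largely left the cell cycle, whereas a myeloma line keeps the secretory programme and divides in culture.

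Levels are deposited log2 values from Affymetrix U133 Plus 2.0 arrays, on which a probe set is a group of probes for 1 transcript. A gene was represented by the brightest of its probe sets that name it alone, which gave 19775 genes. The value of a probe set depends on how well its probes bind as well as on the transcript, so genes are placed by percentile among all genes, where the highest mean over the 3 arrays is percentile 100, and no ratio between genes is given. The background of each array was set from 136 probe sets of 79 genes that belong to other tissues, such as liver, pancreas, muscle and retina, as the level that 95% of those probe sets did not exceed. It lay at 6.48, 6.52 and 6.40 on replicates 1, 2 and 3. A gene was above background when one of its probe sets exceeded that level on each of the 3 arrays, and at background when none did on any array. Between these lay 797 genes, called mixed.

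In untreated H929 cells 9032 genes were above background, which is 45.7% of all genes, and 9946 were at background, which is 50.3%. Of the genes above background 6183 have several probe sets, and 1714 of these exceeded it by all of them. The other calls among these rest on only some of a gene's probe sets, and more probe sets give more ways to pass. Among genes that code for proteins 8708 of 16521 were above background (52.7%), and among long non-coding RNA genes 223 of 2658 were (8.39%). In the top 10 percent of every one of the 3 arrays there were 1849 genes, or 9.35% of all, and such genes are called high below. With 1 group there is no contrast, so the counts are a description and no test was made. The share of a list's genes above background or high is to be read against these shares of all genes.

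**Figure D1:**
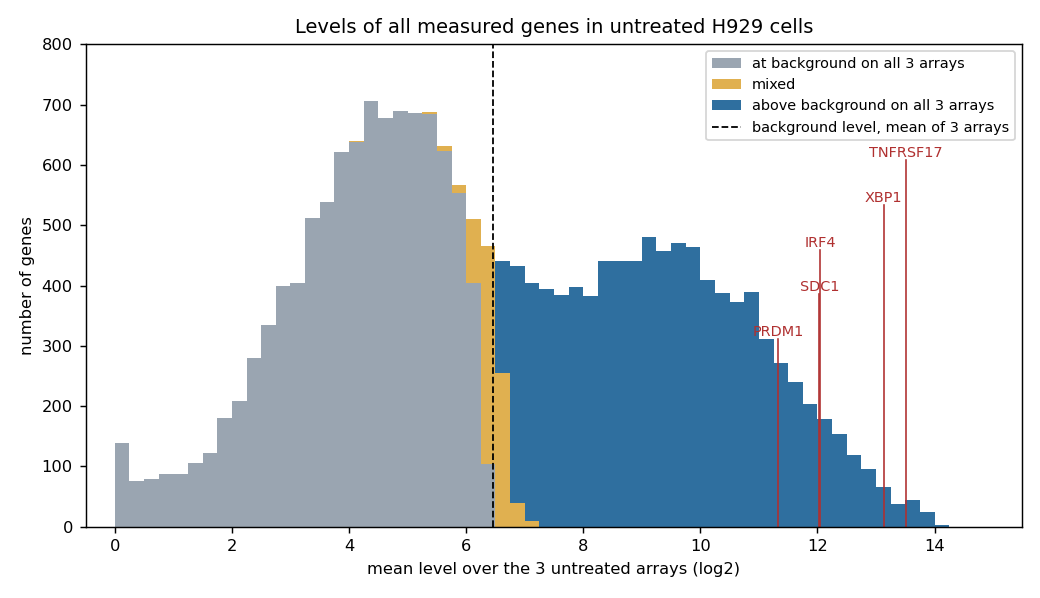
Number of genes (vertical axis) by mean log2 level over the 3 untreated arrays (horizontal axis), coloured by background status, with the 5 plasma cell markers as red lines. The markers lie between 11.32 and 13.50, on the right flank of the genes above background.

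The 5 markers of plasma cells were all high. XBP1, the factor that drives growth of the ER, read 13.07, 13.19 and 13.14 on the 3 arrays, at percentile 99.3. TNFRSF17, the receptor BCMA for plasma cell survival factors, read 13.49, 13.52 and 13.50, at percentile 99.7. IRF4, which switches on plasma cell differentiation, read 12.10, 12.00 and 12.05, at percentile 96.6. These 3 genes varied little between replicates, with SDs of 0.06, 0.01 and 0.05 (n = 3). SDC1, the heparan sulphate proteoglycan CD138, read 11.92, 12.07 and 12.11, at percentile 96.5. PRDM1, the repressor Blimp-1 that shuts off B cell genes, read 11.31, 11.50 and 11.16, at percentile 93.2 and with the largest spread of the 5, an SD of 0.17. XBP1 exceeded background by 1 of its 2 probe sets and IRF4 by 2 of 3, and TNFRSF17, SDC1 and PRDM1 by all of theirs. The labelled identity as a myeloma line therefore met its markers on every array.

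Among the 10 plasma cell regulators 9 were above background, 6 were high, and the median percentile was 93.5, against 50 over all genes. ELL2, an elongation factor used for secreted immunoglobulin transcripts, had a mean of 12.19 ± 0.11 (SD, n = 3). POU2AF1, the B cell coactivator OBF-1, had 12.10 ± 0.18, and 1 of its 2 probe sets exceeded background. CREB3L2, an ER membrane-bound transcription factor, stood at 11.43 ± 0.18. BHLHA15, the factor MIST1 of secretory cells, stood at percentile 90.5 but left the top 10 percent on replicate 3, where it read 10.72 against 11.05 and 10.96. The zinc finger factors IKZF3 and IKZF1, targets of the immunomodulatory drugs used in myeloma, stood at percentiles 85.2 and 79.9, and IKZF1 varied more between arrays, at 9.38, 9.97 and 9.56. ZBTB20, which supports long-lived plasma cells, was at background by all 12 of its probe sets, with a brightest mean of 4.78.

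On the cell surface 15 of 20 listed plasma cell genes were above background and 7 were high. ITGB7, an integrin subunit for homing, read 13.10, 13.49 and 13.10, so that replicate 2 stood above the others. CD48, CD44, CD28 and ITGA4, which serve cell adhesion and costimulation, were also high, at percentiles 98.9, 97.5, 95.8 and 94.9. SLAMF7, the antigen CS1 against which elotuzumab is directed, had a mean of 10.67 and percentile 88.7. BST2, CD59, BSG and LY9 lay between percentiles 83.9 and 88.6. NCAM1 (CD56), an adhesion molecule often found on myeloma cells and not on normal plasma cells, stood at percentile 78.0 by 2 of its 7 probe sets. GPRC5D, an orphan receptor used as a target in myeloma, stood at percentile 76.0, and CD38, the ectoenzyme bound by daratumumab, at percentile 72.9 with 8.65, 9.06 and 8.96 on the 3 arrays. CD38 was thus above background on each array without being high.

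The remaining 5 surface genes did not clear the background on every array. CD200 read 6.07, 6.65 and 6.61, and FCRL5 stayed mixed. CXCR4, the receptor that holds plasma cells in the bone marrow, was at background by its 3 probe sets, with 5.86, 5.63 and 5.38. TNFRSF13B, the receptor TACI, and CD27, a memory B cell and plasma cell receptor, were at background with means of 5.02 and 3.88.

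**Figure D2:**
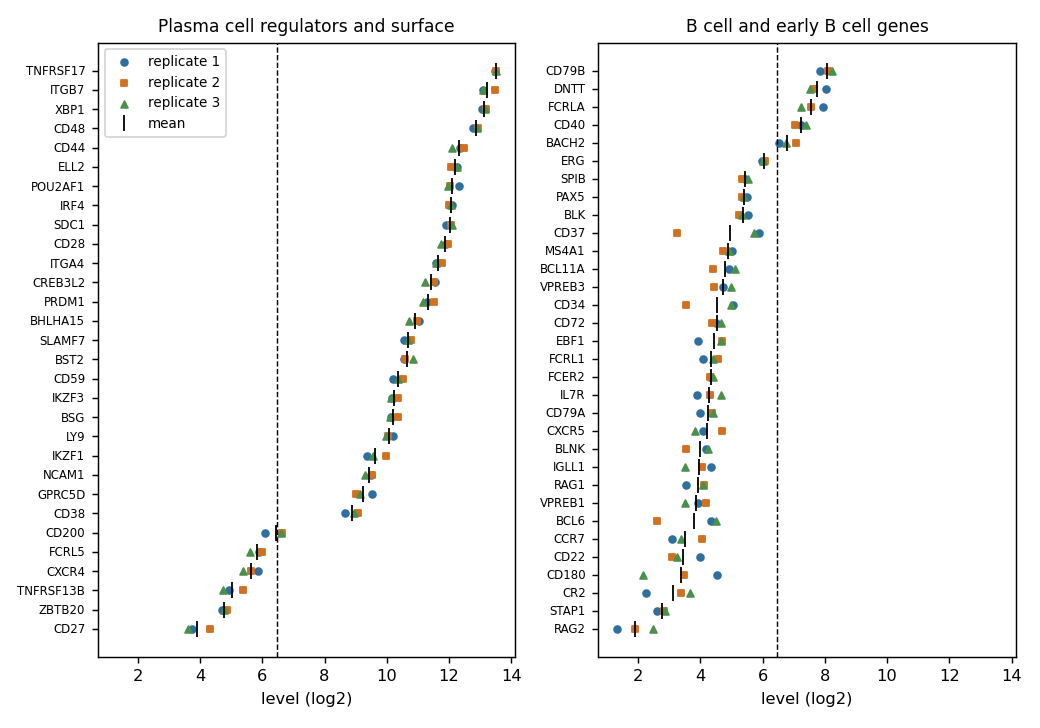
Log2 levels (horizontal axes) of plasma cell regulator and surface genes (left) and of B cell and early B cell genes (right), in order of mean. Points are the 3 untreated arrays, ticks the mean and the dashed line the mean background level. On the left 24 of 30 genes lie above background on every array, and on the right 5 of 32 do.

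Light chain transcripts were among the brightest of the arrays, whereas heavy chain probe sets were at background. IGKC, the kappa constant region, read 13.28, 13.34 and 13.34 by its brightest probe set, at percentile 99.5, although 6 of its 8 probe sets did not exceed background on every array. JCHAIN, the joining chain of polymeric antibody, read 13.54, 13.60 and 13.67, at percentile 99.7, and MZB1, an ER cochaperone of B lineage cells, had a mean of 12.56 at percentile 98.2. IGHM, IGHD, IGHG1 and IGHA1 were at background by every probe set that names them alone, with brightest means of 5.72, 5.14, 4.31 and 4.14. Many immunoglobulin probe sets name several genes and were therefore counted by chain, over all probe sets whose symbols belong to 1 chain only. Of 58 heavy chain probe sets 1 exceeded background on all arrays, at a mean of 7.14, and none had a mean over 10. Of 21 kappa probe sets 9 exceeded background and 7 had means over 10, up to 13.96. Of 29 lambda probe sets 4 exceeded background, all with means over 10, with a highest mean of 12.27 for a probe set of IGLC1, and all 4 have names ending in _x_at, which marks probes that can bind other transcripts. H929 has been described as a producer of IgA with kappa light chains. Variable region genes that these cells do not use, and rearranged transcripts that differ from the probes, are in these counts, and their part in the heavy chain result was not tested.

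The B cell programme that plasma cells shut down was mostly at background. Of 23 listed genes 19 were at background, 4 were above it and none was high, and the median percentile was 26.7. The pan-B cell factor PAX5 read 5.49, 5.33 and 5.40, MS4A1 (CD20) read 5.0, 4.73 and 4.92, and CD79A, a chain of the B cell receptor, read 3.97, 4.36 and 4.42. The germinal centre repressor BCL6 read 4.33, 2.60 and 4.49. All 4 lay below background on each array. SPIB, BLK, CD37, BCL11A, CD72, EBF1, FCRL1, FCER2, CXCR5, BLNK, CCR7, CD22, CD180, CR2 and STAP1 were at background as well, with means from 2.75 to 5.42. The genes above background were CD79B at 7.86, 8.11 and 8.22, FCRLA at 7.92, 7.55 and 7.23, CD40 at 7.24, 7.04 and 7.38, and BACH2 at 6.52, 7.06 and 6.75. For CD79B, FCRLA and CD40 a single probe set of 3 or 4 exceeded background. With the background set at the level that 99% of the silent probe sets did not exceed, none of the 23 genes remained above it. BACH2, a repressor that delays plasma cell differentiation, was the nearest of the 4 to background, at 6.52 on replicate 1 against a background of 6.48.

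Genes of early B cell stages and of antigen recombination gave the same picture, with 8 of 9 at background. RAG1 and RAG2, the recombinase pair, had means of 3.91 and 1.90. DNTT, the enzyme that adds bases at recombination joints, was the exception at 8.04, 7.66 and 7.52, by 1 of its 3 probe sets.

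Antigen presentation divided by class. All 10 measured class I genes were above background, and B2M, the invariant light chain, read 13.51, 13.53 and 13.51. HLA-C, HLA-E and HLA-B were high too, and NLRC5, the class I transactivator, was lowest at 6.87, 6.69 and 6.88. Of 12 class II genes 2 were above background, HLA-DPA1 with a mean of 8.08 and HLA-DMB with a mean of 7.44, and 8 were at background. CIITA, which turns class II genes on, read 5.97, 6.0 and 6.29, CD74, the invariant chain, read 6.16, 6.03 and 5.99, and HLA-DRA read 4.15, 4.10 and 4.01. All of these were below background on each array. With the 99% background none of the 12 class II genes stayed above it.

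Markers of other cell types were used as a check of the sample. Over 6 lists, for T cells, NK cells, myeloid cells, erythroid cells and megakaryocytes, stroma and endothelium, and epithelium, 7 of 69 genes were above background, 58 were at background, and none was high. No myeloid and no epithelial gene was above background, among them CD14, LYZ, MPO, EPCAM and CDH1. CD3E, CD3D, CD4 and CD8A of T cells were at background. The 7 genes above background were GATA3, PRF1, GZMB, EPOR, PECAM1, COL1A1 and ACTA2. The highest of them was EPOR, the erythropoietin receptor, at 8.60, 8.58 and 8.17 and percentile 69.0. PECAM1, which is also known on plasma cells, read 7.83, 8.57 and 7.89. The 4 silent-tissue genes that themselves stood above background, FABP6, TSHR, SLC17A7 and KLK3, reached means of 7.63 to 9.31, so levels in this range also occurred among genes taken as silent.

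**Figure D3:**
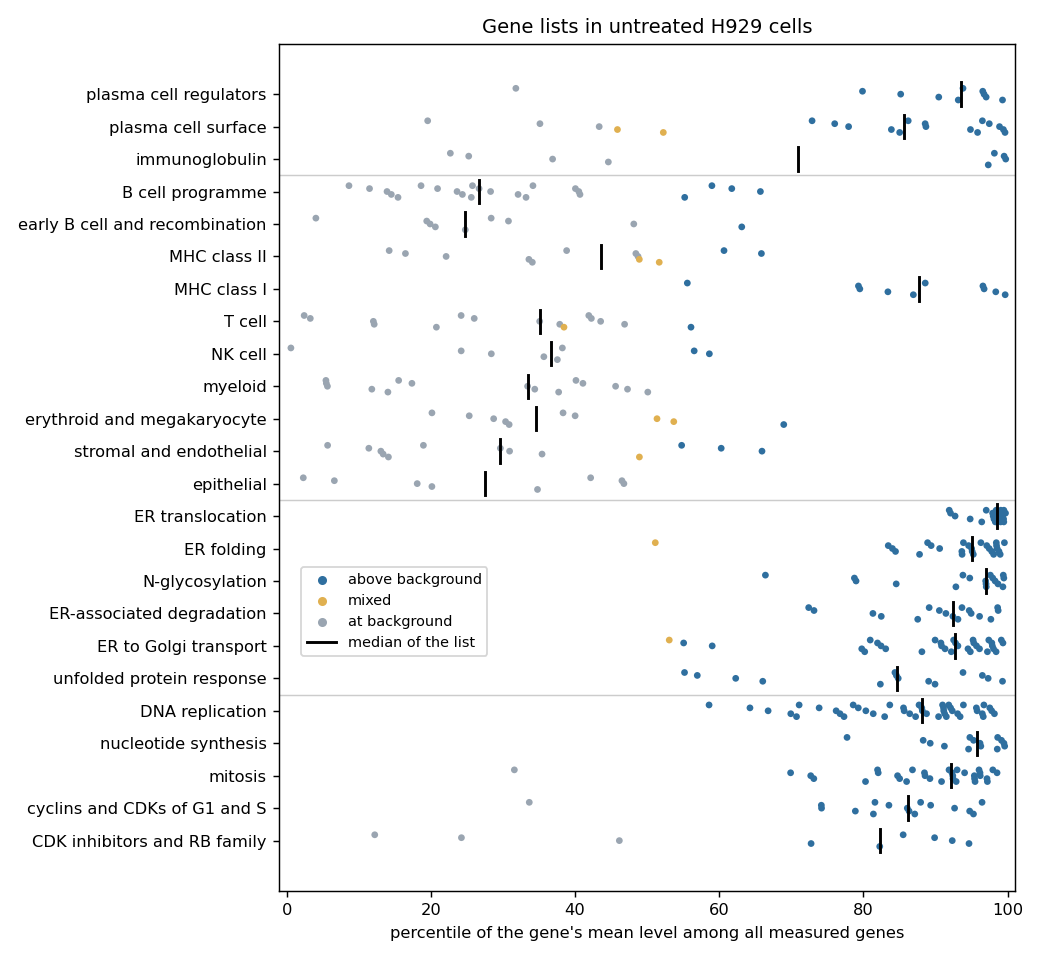
Percentile of each gene's mean level among all 19775 genes (horizontal axis) for 24 gene lists, with points coloured by background status and a black bar at each list's median. Secretory and proliferation lists, the latter with cell cycle inhibitors, have medians from 82.3 to 98.5. Lists of B cells and other lineages, apart from MHC class I, have medians from 24.8 to 43.6.

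Genes of the secretory pathway were above background almost throughout. Over its 6 lists 126 of 128 genes were above background, 88 were high (68.8%), and the median percentile was 94.8. All 22 genes of ER translocation were high, from percentile 91.9 to 99.7. SPCS1, a subunit of the signal peptidase, read 13.55, 13.59 and 13.56. SEC11C, the catalytic signal peptidase subunit, had a mean of 13.28, and SEC61B and TRAM1 of the translocation channel had means of 13.27 and 13.24. The lowest members, SEC62 and SRP54, still had means of 11.15 and 11.12.

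Chaperones and oxidoreductases of the ER followed, with 25 of 26 above background and 18 high. The lectin chaperone CANX had a mean of 13.38 ± 0.02 (SD, n = 3), HSPA5 (BiP), the ER chaperone that binds free heavy chains, had 12.92 ± 0.04, and the disulphide isomerases P4HB and PDIA6 had 12.82 and 12.71. ERO1B, an oxidase of the disulphide isomerases, was mixed at 6.32 ± 0.19, next to ERO1A at percentile 88.9. HSP90B1 (GRP94) stood at percentile 83.5 by the 2 probe sets that name it alone, and others that also name a microRNA were not used for it.

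Some promoters of the ER folding list held a sequence known from ER chaperone genes. Its share in a list of such genes is therefore not independent evidence. The ER stress element, CCAAT and CCACG with 9 bases of any kind between them, is the binding site through which ATF6 and XBP1 act on ER chaperone genes. It was searched on both strands of RefSeq promoter windows of 300 bases, from 250 before each gene's start to 50 after, on GRCh38.p14. It was found in 6 of the 25 ER folding genes with a window (24.0%), against 22 of 27305 windows of all genes (0.0806%). No window of the ER translocation, N-glycosylation, ER-associated degradation or ER to Golgi transport lists held it, nor did those of DNA replication or mitosis. The 7 matches in the 6 genes are shown because the count rests on them, with the fixed bases in capitals, read along the strand of the match.
HSPA5: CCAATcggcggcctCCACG
HSP90B1, first: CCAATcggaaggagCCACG
HSP90B1, second: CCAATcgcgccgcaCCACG
CALR: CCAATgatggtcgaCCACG
CANX: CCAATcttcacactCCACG
ERO1B: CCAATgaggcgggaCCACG
CRELD2: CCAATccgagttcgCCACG

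They lie at chr9:125241391-125241409 on the minus strand for HSPA5, at chr12:103930216-103930234 on the plus strand and chr12:103930321-103930339 on the minus strand for HSP90B1, and at chr19:12938384-12938402 on the minus strand for CALR. The match of CANX lies at chr5:179698778-179698796 on the plus strand, that of ERO1B at chr1:236282183-236282201 on the plus strand, and that of CRELD2 at chr22:49918554-49918572 on the minus strand. All 7 lie in the 250 bases before the start of their gene. The genes that hold the element ranged from CANX at percentile 99.6 to ERO1B at percentile 51.1, so the match went with both high and mixed levels. A match in letters is a description and does not show binding, and a window without one may hold other forms of the element.

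In N-glycosylation all 17 genes were above background and 13 were high. KRTCAP2, RPN2 and OSTC, subunits of the oligosaccharyltransferase, and DPM1, which makes the mannose donor, led with means from 12.76 to 13.28, and STT3A varied most, at 11.27, 11.24 and 11.79. All 17 genes of ER-associated degradation were above background, led by the ubiquitin-conjugating enzyme UBE2J1 at 12.77 and by HERPUD1 and SEL1L of the retrotranslocation complex at 12.74 and 12.38. Of 32 genes of ER to Golgi transport 31 were above background and 21 were high. LMAN1, the cargo lectin ERGIC-53, read at a mean of 13.18, TMED9 at 13.01 and TMED2 at 12.65, and ARF1 was mixed at 6.53 by the 1 probe set that names it alone, while 3 more that it shares with other genes were not used.

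The regulators of the unfolded protein response lay lower than the machinery. All 14 were above background, but 4 were high, and the median percentile was 84.7. ATF4, the translationally controlled activator, read 12.20, 12.30 and 12.31, and the sensor kinase EIF2AK3 (PERK) read 12.06, 12.09 and 11.96. Beside XBP1 and CREB3L2 these made up the high members. DDIT3 (CHOP), the factor that goes with prolonged ER stress, read 7.18, 6.91 and 6.83, at percentile 57.0, and ATF6B was lowest at a mean of 6.77. With the 99% background 10 of the 14 stayed above it.

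Proliferation genes were above background almost throughout. Over 5 lists 110 of 115 genes were above background, 52 were high (45.2%), and the median percentile was 89.3. These lists include the inhibitors of the cell cycle described below. All 44 genes of DNA replication were above background and 18 were high, led by the flap endonuclease FEN1 with a mean of 12.57 and by the helicase subunits MCM2, MCM7 and MCM5 with 12.41, 12.33 and 12.10. POLE and PRIM2, of the leading-strand polymerase and the primase, were lowest at 7.19 and 7.88. Nucleotide synthesis stood higher, with 11 of 14 genes high. RRM2, the regulated subunit of ribonucleotide reductase, read 13.53, 13.35 and 13.40, IMPDH2 of guanine nucleotide synthesis had a mean of 13.29, and TYMS, thymidylate synthase, had a mean of 13.03.

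The E2F-type sites TTTGGCGC and TTTCCCGC, through which E2F factors act on S-phase genes, were searched in the same windows on both strands. They occurred in 15 of 38 DNA replication genes with a window (39.5%), in 2 of 27 mitosis genes (7.41%) and in 631 of all 27305 windows (2.31%). Among genes above background 307 of 7556 windows held one (4.06%). Such sites are known from S-phase genes, so their share in the replication list is not independent evidence. No window held both an E2F-type site and the ER stress element. The sites of the 3 highest replication genes that hold one and of the lowest, POLE, are shown with up to 8 bases on either side, the site in capitals. These genes were chosen for their matches.
MCM7: gcgccgggTTTCCCGCggtccgag
PCNA: gcacgcctTTTCCCGCccctgacg
MCM6, first: gctttgcaTTTGGCGCgaaatccc
MCM6, second: tggtcaggTTTGGCGCgaaatctc
POLE: gggagaaaTTTGGCGCgctcccac

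The windows shown lie on GRCh38.p14 at chr7:100101569-100101592 on the plus strand for MCM7, chr20:5126666-5126689 on the plus strand for PCNA, chr2:135876580-135876603 and chr2:135876518-135876541 on the minus strand for MCM6, and chr12:132687345-132687368 on the plus strand for POLE. The matched sites lie before the start of each gene. MCM7 stood at percentile 97.5 and POLE at percentile 58.6, so within the list genes with a site lay at both ends of the levels.

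Mitotic genes were above background in 31 of 32 cases and high in 17. CCNB1, the mitotic cyclin, had a mean of 12.71, MAD2L1 of the spindle checkpoint 12.48, the kinase AURKA 12.23 and the checkpoint kinase BUB1B 12.22. INCENP, a scaffold of the chromosomal passenger complex, was at background by its single probe set with 4.77, next to its partner kinase AURKB at 8.56. Among cyclins, kinases and E2F factors of G1 and S phase 15 of 16 were above background. CDK6, a kinase that D cyclins activate, led at 12.02, 12.10 and 11.95, and CCNA1, a germ line cyclin, was at background.

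Inhibitors of the cell cycle, which are counted in the proliferation lists above, were in part above background. CDKN1A (p21) read 11.71, 11.68 and 11.46, at percentile 94.7, and CDKN2A, the locus of p16 and ARF, read 11.10, 11.27 and 11.17, at percentile 92.3. RB1, which is on the same list, had a mean of 10.84. CDKN1C (p57), CDKN2D and CDKN2B (p15) were at background, with means of 5.86, 4.24 and 3.19. In all 6 of the 9 genes of this list were above background.

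The genes reached by myeloma translocations were above background in 7 of 8 cases, and none was high. NSD2, the histone methyltransferase that t(4;14) places under immunoglobulin control, read 10.41, 10.66 and 10.44, at percentile 87.3 and above background by all 6 of its probe sets. FGFR3, the receptor at the same translocation, read 9.43, 8.96 and 9.22, at percentile 75.8, by 1 of its 2 probe sets. CCND2, CCND3 and CCND1, the D cyclins, stood at percentiles 87.1, 86.3 and 83.5, so all 3 were above background in the same cells. MAF, the factor of t(14;16), read 10.00, 10.88 and 10.43 by its brightest probe set, 1 of 2 among 6 that exceeded background, with an SD of 0.44, the widest spread in this list. MYC read 8.66, 8.68 and 8.55, at percentile 70.5, and MYCN was at background by its 10 probe sets.

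Receptors for the growth factors of the marrow were uneven. IL6R, the receptor of the myeloma growth factor IL-6, read 11.72, 12.02 and 11.70, and IL6ST, its signalling partner, had a mean of 10.94. CCR1, a chemokine receptor, had a mean of 11.41 ± 0.34 (SD, n = 3). S1PR1 and CCR2 were at background at 2.75 and 4.68, as was CXCR4. All 14 genes of the BCL2 family were above background, and MCL1, the survival protein that myeloma cells lean on, was high at 12.72, 12.77 and 12.59. BCL2L11 (BIM), a killer of the same family, had a mean of 10.47, and BMF and BCL2L2 were lowest at 6.57 and 6.85. With the 99% background 5 of the 14 stayed above it.

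Histone deacetylases and aminopeptidases, the enzyme families that the study's compounds act on, were mostly above background before treatment. The lists are not limited to enzymes that the compounds inhibit. HDAC6, against which the paper describes minimal activity of CHR-3996, was above background at a mean of 7.01, by 1 of its 3 probe sets. Of 11 histone deacetylases 8 were above background, with HDAC2 and HDAC1 high at means of 11.25 and 11.08, and HDAC7 and HDAC11 at background. HDAC9, HDAC8, HDAC5, HDAC4 and HDAC6 had means from 8.62 down to 7.01, below the 9.31 reached by FABP6, a gene taken as silent. Of these only HDAC8 passed by more than 1 probe set. Of 13 aminopeptidases 10 were above background, led by LAP3 at 12.15, 12.08 and 12.21 and XPNPEP1 at a mean of 11.92, while the cell surface enzymes ANPEP (CD13) and ENPEP were at background at 3.98 and 5.13. The NFkB pathway and the proteasome, which are not direct targets of the compounds, were looked at beside these families. Of 17 measured genes of the NFkB pathway 12 were above background, with BIRC2 (cIAP1) highest at 11.26, 11.26 and 11.39. The members from REL at a mean of 9.08 down to NFKBIZ at 6.90 lay below the level of FABP6 too. CYLD passed by 1 of its 7 probe sets. BIRC3 (cIAP2) and TRAF2 are on the list but had no probe set that names them alone, so they have no level here. MAP3K14 (NIK), the kinase of the non-canonical arm, was at background at 3.39, 3.66 and 3.36, and RELB was too, at a mean of 5.29. All 16 measured proteasome genes were above background and 15 were high, from PSMB4 at 13.16 down to the immunoproteasome subunit PSMB8 at 10.48.

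Among genes read by a probe set of their own, the top of the ranking was taken by translation. EEF1A1, the factor that brings aminoacyl-tRNA to the ribosome, was highest on each array, at 14.07, 14.12 and 14.07. Ribosomal protein genes filled 14 of the first 20 places and 41 of the first 100. RPS16, RPS6, RPS23, RPL7 and RPLP1 led them. The mitochondrial genes COX1, COX2 and ND4, the chaperonin HSPD1 and the ferritin light chain FTL filled the other places beside EEF1A1. Of the 100 highest genes of each array 94 were shared by all 3. Values at this end of the scale crowd together, from 13.78 to 14.08 over the first 20 genes, so their order has little meaning. Kappa light chain probe sets that name 2 genes have no place in this ranking, and the brightest of them had means of 13.96 and 13.90, within the same range. Ribosomal genes also have many near-identical copies, and probes for one can bind another.

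The replicates lay close together. Over genes above background the 3 pairs of arrays correlated at r of 0.990 to 0.992, and over all genes at r of 0.979 to 0.980. These are correlations across genes, which are not independent replicates. The median SD over the 3 arrays was 0.11 for genes above background. It fell with level, from 0.75 in the lowest 10% of the genes to 0.07 in the highest 10%. By list the median SD of the genes above background was 0.05 for ribosomal proteins, ER translocation and the proteasome, 0.08 for DNA replication and for mitosis, and 0.17 for plasma cell regulators. The signal of the 3' end of beta-actin over its 5' end was 1.98, 2.13 and 2.32 on the log2 scale on replicates 1, 2 and 3, and that of GAPDH was 0.49, 0.44 and 0.38, in the opposite order. Both measures move with RNA quality and labelling, and their part in the spread was not tested.

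**Figure D4:**
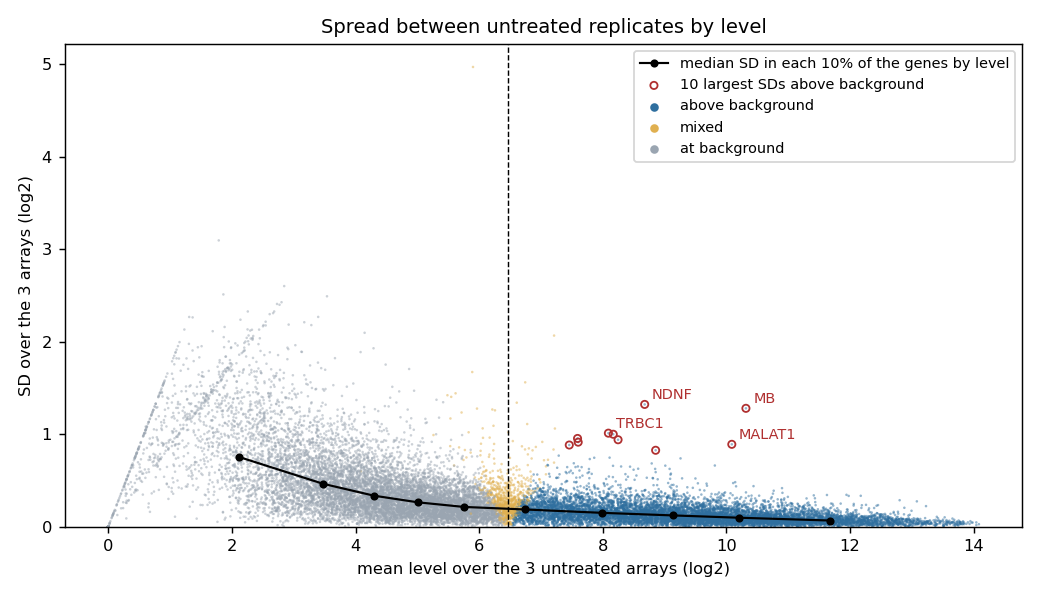
SD over the 3 untreated arrays (vertical axis, log2) against mean level (horizontal axis, log2) for all genes, with the median SD of each successive 10% of the genes as a black line and the mean background level dashed. The median SD falls from 0.75 to 0.07, and the 10 circled genes stand above the other genes above background.

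Few genes above background varied widely. Among these 9032 genes 73 had an SD over 0.5 and 4 had an SD over 1. A gene had to exceed background on every array to be counted, so genes that fell below it on any array were left out. LINC02116, the mixed gene with the largest SD of any gene, is among those. NDNF, a secreted neurotrophic factor, read 7.28, 9.91 and 8.85, the largest SD above background at 1.32. MB, myoglobin, read 9.23, 11.73 and 9.99, with an SD of 1.28. TRBC1, a T cell receptor constant region, read 7.00, 9.01 and 8.26, and HBE1, embryonic haemoglobin, read 7.27, 9.14 and 8.33. All 4 were lowest on replicate 1 and highest on replicate 2. S100A6, a calcium-binding protein, read 6.80, 8.65 and 7.32, FCMR, the IgM Fc receptor, read 6.96, 8.48 and 6.93, and ARHGDIB, a regulator of small GTPases in blood cells, read 8.17, 9.77 and 8.62. Of the 10 genes with the largest SD 7 were highest on replicate 2, where 4259 of all 9032 genes above background (47.2%) were highest too.

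The other 3 went differently. ZMAT5, a spliceosome protein, read 8.51, 7.04 and 8.95, lowest on replicate 2. P3H2, a collagen prolyl hydroxylase, read 6.91, 7.26 and 8.64, and MALAT1, a nuclear long non-coding RNA, read 10.65, 10.55 and 9.06, so that replicate 3 stood apart in both. Among the 73 genes with an SD over 0.5, 37 were highest on replicate 2, 30 on replicate 3 and 6 on replicate 1, and 46 were lowest on replicate 1. These are 50.7%, 41.1%, 8.22% and 63.0% of them. Over all genes above background the same shares were 47.2%, 25.9%, 27.0% and 34.1%, so the share highest on replicate 2 was near that of all genes. TRBC1 and HBE1 belong to other blood lineages. The T cell list had 1 of 15 genes above background, GATA3, and CD3D and CD3E were below background on every array. The erythroid and megakaryocyte list had 1 of 10, EPOR, while HBB, adult beta-globin, was mixed at 5.71, 6.94 and 6.38, with its arrays in the same order as HBE1. The part of other cells in this spread was not tested.

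**Figure D5:**
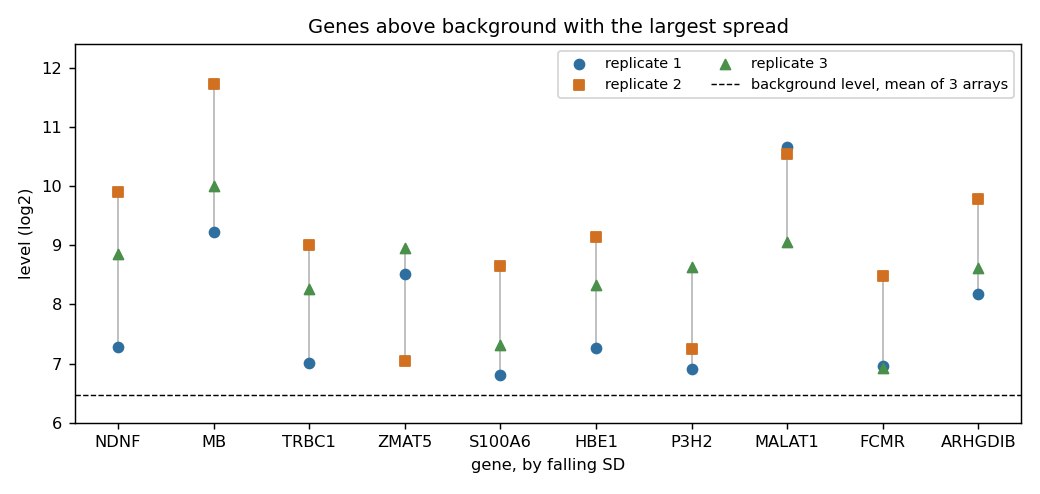
Log2 level (vertical axis, starting at 6) of the 10 genes above background with the largest SD, on each of the 3 untreated arrays, with the mean background level dashed. Replicate 2 is highest for 7 of the 10 genes, among them NDNF at 9.91 and MB at 11.73, and for 47.2% of all genes above background.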

How the data were processed

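RNA from 3 untreated H929 samples was amplified, biotin-labelled and hybridized to Affymetrix U133 Plus 2.0 arrays by the authors, who processed the scans in dChip. On the log2 scale they deposited 1 value per array for each of 54675 probe sets. How dChip was set, including its version, normalization and summary of probes, is not given in the sources used here. On the untreated arrays 1330 to 1344 values equal 0, and 0 to 9 lie below 0. Array medians were 5.00 to 5.07, no further normalization was applied, and the number of arrays limits the precision. Of 54613 probe sets other than controls, 41091 have 1 symbol in the platform annotation, 1801 have several and 11721 are not listed there. Symbols were updated through gene identifiers to RefSeq names. Genes that the annotation does not list alone were not analysed here.

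The percentile, background and SD calculations were tested on simulated arrays and run in Python 3.11.15 with pandas and numpy. The genes named are the 5 markers, the 20 highest genes, up to 4 highest and 2 lowest members of each list, every member of 5 lists on plasma cells, immunoglobulin, B cells and translocations, and the 10 largest SDs above background. Others were chosen after their values were seen. Members and lists were chosen with earlier results of these data known. A planned search of protein ends for ER retention signals was not run. Coordinates are those of the promoter windows, not of the probes.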

Additional observations from a re-analysis of the deposited data

How the results depend on the processing

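The count of genes above background, 9032, fell to 5811 with the background at the level that 99% of the silent probe sets did not exceed, and came to 13603 with the 40th percentile of each array in its place, where 4268 genes were at background. The count of high genes, 1849, was 920 for the top 5 percent and 179 for the top 1 percent, by construction. Under quantile normalization and under equal array medians these 3 counts moved by less than 1%. Without each array in turn, 9117 to 9231 genes were above background, 10037 to 10154 at background and 1879 to 1901 high, and the median SD was 0.0788 to 0.103. With the median of a gene's probe sets in place of the brightest, the median percentile was 79.3 for plasma cell genes, 27.9 for lineage genes, 93.1 for secretory genes and 90.5 for proliferation genes. Without _x_at and _s_at probe sets these were 91.6, 32.4, 94.1 and 90.2. Among genes above background alone they were 89.8, 25.1, 88.7 and 78.4. Without each array in turn they were 88.1 to 89.0, 32.7 to 34.1, 94.7 to 94.8 and 89.1 to 89.3. Single lists moved more: 12 of 41 shifted by over 10 percentile points under some setting that kept all genes as the reference. Immunoglobulin went from 71.0 to 24.6 with the median probe set and to 24.1 without _x_at and _s_at probe sets, and metallothioneins from 65.1 to 11.9 under the latter. Plasma cell regulators went from 93.5 to 81.5 with the median probe set. The cause was not tested. No paired analysis was possible because the result comes from 1 group and no test.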

Other observations

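Cancer-testis genes, which are silent in most adult tissues outside the germ line, were divided between the top of the ranking and background. The families were chosen after their values were seen and taken by symbol. Only members with a probe set that names them alone were counted, so the families are not complete. Over 8 families 12 of 26 genes were above background (46.2%, against 45.7% of all genes) and 14 were at background. Of the 26 genes 10 were high, where 9.35% of all genes were, and the median percentile was 42.6. Of 7 MAGEA genes 4 were above background and high and 3 were at background. MAGEA6 read 13.03, 13.00 and 13.07, at percentile 99.2, MAGEA1 had a mean of 12.92, MAGEA12 of 12.50 and MAGEA4 of 12.49. MAGEA11, MAGEA8 and MAGEA10 had means of 4.32, 3.58 and 3.34, all below background. The measured members thus split between the top of the ranking and background. MAGEA6, MAGEA1 and MAGEA12 were read by _x_at probe sets, which can bind near-identical copies, so their levels are uncertain as to which member they belong to. Of 6 MAGEB genes 4 were at background, and MAGEB2 and MAGEB1 had means of 11.24 and 10.53. MAGEC1 read 11.93, 12.00 and 11.90, while MAGEC2 and MAGEC3 were at background. CTAG2 read 12.61, 12.65 and 12.63, SSX1 read 11.98, 12.02 and 12.05, and PAGE5 had a mean of 11.11. CTAG2 and SSX1 were read by _x_at probe sets too, and the other probe set of CTAG2 had a mean of 4.56. GAGE1, XAGE2 and XAGE3 were at background. TEX19, a germ line gene, read 12.99, 12.84 and 12.93 by its single probe set.

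Families that serve other tissues gave a second view of the background. Of 102 olfactory receptor genes 4 were above background and 94 at background, of 44 keratin genes 1 was above, and of 28 HOX genes 4 were above. The highest olfactory receptor entry, the pseudogene OR7E37P, stood at percentile 86.6, and the 1 keratin, KRT10, was high at percentile 97.4 by all 3 of its probe sets. Other genes on no list stood near the top and were likewise picked after their values were seen. AMPD1, the AMP deaminase named for muscle, read 13.31, 13.52 and 13.38, at percentile 99.6. TFRC, the transferrin receptor, had a mean of 13.53, the water channel AQP3 a mean of 12.87, and UCHL1, a deubiquitinase known from neurons, a mean of 12.51. THBS1, a secreted matrix protein, read 12.74, 12.55 and 13.12, by 1 of its 7 probe sets.

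Among genes called mixed, 2 stood far apart on replicate 1. LINC02116 read 11.58, 2.37 and 3.75, with an SD of 4.97, the largest of any gene, and MKS1 read 9.58, 5.76 and 6.30. Each departure is seen in 1 probe set on 1 array.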
